A study of Mus musculus with 8 samples.

Results

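The genes described here encode enzymes, and 1 transporter, that use arginine, make nitric oxide, or form the immune metabolites itaconate and kynurenine. The 10 listed genes were Nos1, Nos2, Nos3, Arg1, Arg2, Ass1, Asl, Slc7a2, Ido1 and Acod1, the last listed under its older symbol Irg1. Each was found by its symbol in the authors' deposited table and each had 1 transcript cluster, the probe group of the array, so 10 of 41345 clusters are described. The table held 24647 gene symbols in all.

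The nitric oxide synthases convert arginine to nitric oxide and citrulline, while the arginases hydrolyse the same arginine to ornithine and urea. Argininosuccinate synthase (Ass1) and lyase (Asl) rebuild arginine from citrulline, and Slc7a2 carries cationic amino acids into the cell. Acod1 makes itaconate from cis-aconitate of the citrate cycle, and Ido1 starts the conversion of tryptophan to kynurenine. In cultured mouse macrophages, Nos2 and Acod1 are known as genes induced by bacterial lipopolysaccharide, and Arg1 as a gene induced by interleukin-4. In the uterus, nitric oxide is known as a relaxant of smooth muscle.

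Endometrium, the inner lining of the uterus, was taken 8 h after mating from CBA x C57Bl/6 F1 females placed with Balb/c males in the night after proestrus. Females of the Intact group mated with intact males and so met seminal fluid, and females of the SVX/VAS group mated with males that deliver none. The labels do not spell out SVX/VAS, which in this field commonly stands for removal of the seminal vesicles with vasectomy, and they give no age of the animals. Each of the 2 groups had 4 Affymetrix Mouse Gene 2.0 ST arrays, and every array carried a pool of 4 females (16 per group), so that a difference between single animals was averaged within a pool. Mating was followed on video in both groups, whereas a copulatory plug was checked in the Intact group alone.

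Values are given on the authors' log2 scale, where a difference of 1 is a doubling. Array medians lay between 5.35 and 5.41. Over all clusters, the SVX/VAS arrays correlated with each other at Pearson's r of 0.981 to 0.984 and the Intact arrays at 0.971 to 0.978. Intact replicate 4 correlated with the SVX/VAS arrays (0.978 to 0.981) at least as well as with the other Intact arrays (0.974 to 0.978), so results that rest on it are also given without it. Markers of uterine epithelium such as Epcam (10.98 ± 0.14 in Intact and 10.95 ± 0.07 in SVX/VAS, SD, n = 4 each) and of stroma such as Pdgfra (8.28 ± 0.56 and 8.67 ± 0.37) were present, and so were those of smooth muscle such as Myh11 (8.03 ± 0.64 and 7.92 ± 0.36). No detection calls were used, so a value near the array median may be background. The mean of Slc7a2 lay below the median cluster (5.37), and the means of the other 9 genes lay above it. Acod1 did so through its Intact arrays alone, with group means of 5.87 in Intact and 4.91 in SVX/VAS. Its SVX/VAS values may thus be background.

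After Intact mating, Nos2, the inducible nitric oxide synthase, was 2.08-fold higher and Acod1 was 1.95-fold higher than after SVX/VAS mating. Arg1, the cytosolic arginase, was 1.47-fold lower. The constitutive synthases Nos1 and Nos3, the mitochondrial arginase Arg2, the citrulline recycling enzymes, the transporter Slc7a2 and Ido1 differed by at most 1.13-fold. None of the 10 genes passed a Benjamini-Hochberg adjusted p of 0.05 in limma's moderated test, fitted over all 41345 clusters, of which 0.0822% passed. By unadjusted p under 0.05, 3 of the 10 qualified, beside 11.9% of all clusters. Among symbols above the median cluster, where 9 of the 10 lay, that share was 17.2%. Under the study's criteria, a 1.5-fold change or more together with p under 0.05 before adjustment, Nos2 and Acod1 were the 2 members that qualified as higher, beside 0.9% of all clusters, and 0 qualified as lower, beside 1.57% of all clusters. With 1 cluster per symbol, the shares under these criteria were 0.783% higher and 0.617% lower. The median log2 difference was -0.07 over the 10 genes and 0.00047 over all clusters.

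**Figure D1:**
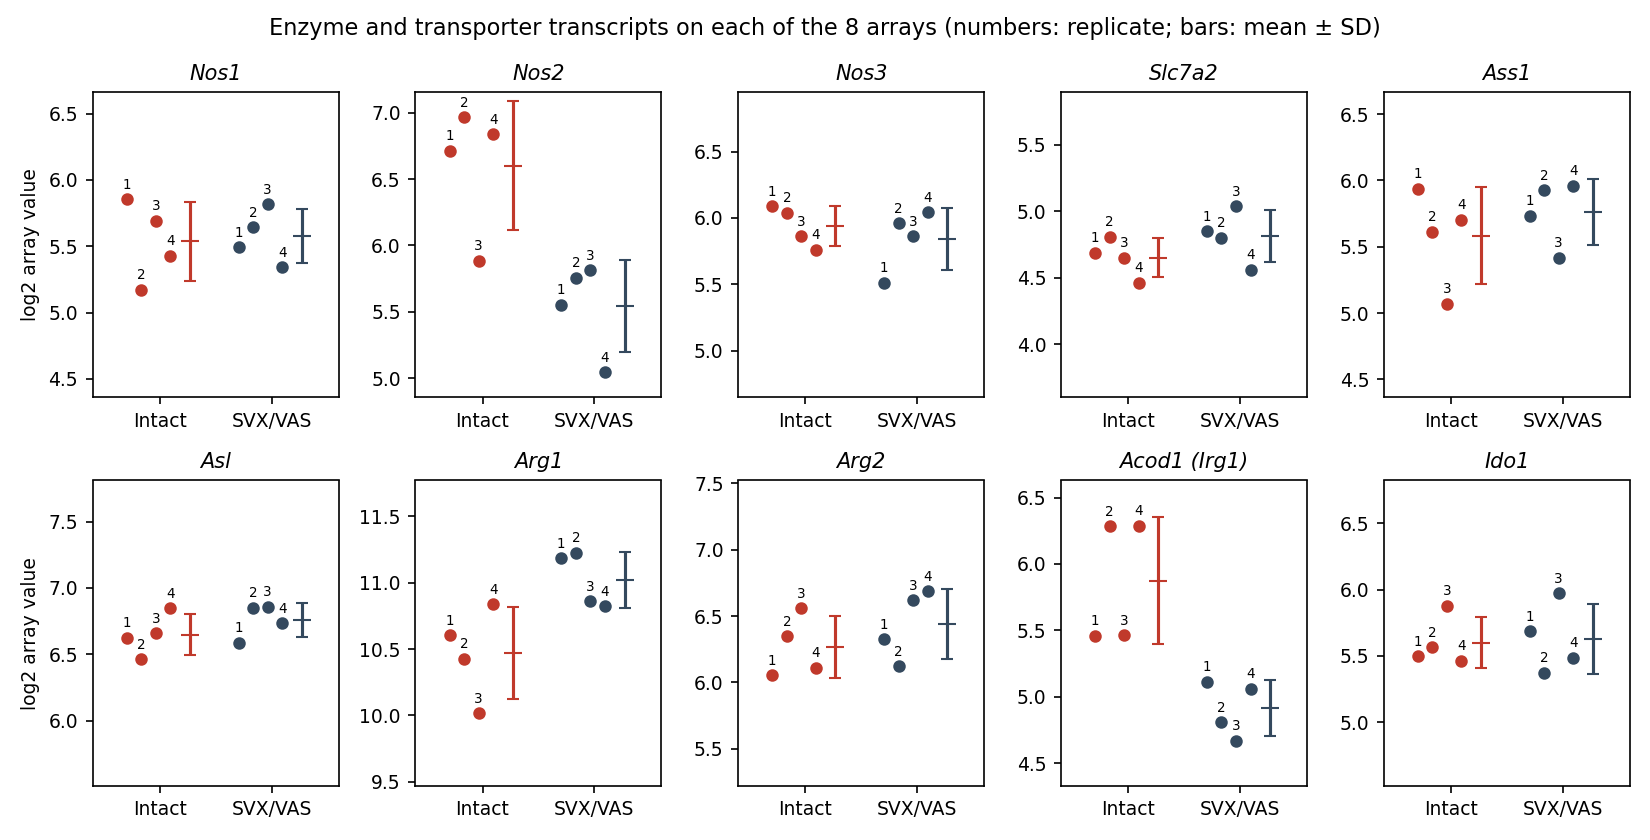
Log2 array values of the 10 genes, with a panel for each gene, a point for each array (the number is the replicate) and the mean ± SD of each group of 4. Every panel spans the same number of log2 units, and the groups stand apart in the panels of Nos2 and Acod1 (Irg1).

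Nos2 makes nitric oxide in large amounts once its transcript is induced, and the authors' deposited table places its gene on chromosome 11 (45.6 cM). Its log2 values in the Intact arrays were 6.71, 6.97, 5.89 and 6.84 for replicates 1 to 4. In the SVX/VAS arrays the Nos2 values were 5.55, 5.76, 5.81 and 5.05. The groups did not overlap, but Intact replicate 3 lay only 0.07 above the highest SVX/VAS array, and the other 3 Intact arrays lay close together well above it. Groups with Intact wholly above SVX/VAS were found for 2 of the 10 genes, Nos2 and Acod1, and for 3.37% of all clusters. The group means were 6.60 ± 0.49 and 5.54 ± 0.35 (SD, n = 4 each), a log2 difference of 1.06 (SE 0.26, 95% interval 0.48 to 1.64) with an adjusted p of 0.16 in limma. Without Intact replicate 3 the difference was 1.30 and the adjusted p 0.062, the lowest that any of the 10 genes had under the 14 alternative settings. Without Intact replicate 4 it was 0.98 with an adjusted p of 0.21.

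The neuronal synthase Nos1, which the authors' deposited table places on chromosome 5, had log2 values of 5.17 to 5.85 in the Intact arrays. Its SVX/VAS values of 5.34 to 5.82 fell inside that range. Means were 5.54 ± 0.30 and 5.58 ± 0.20, a difference of -0.04 with a 95% interval of -0.41 to 0.34 (limma adjusted p = 0.95). The endothelial synthase Nos3, on the same chromosome, ranged from 5.76 to 6.09 in Intact and from 5.51 to 6.04 in SVX/VAS. Its groups overlapped, with SVX/VAS replicate 1 below every Intact array, and the difference was 0.09 with a 95% interval of -0.22 to 0.40 (limma adjusted p = 0.84). Both intervals leave out a 1.5-fold change in either direction. Endothelial markers as a list overlapped as well, with a mean log2 level over the 8 genes of 5.51 to 6.29 in Intact and 5.87 to 6.19 in SVX/VAS, and 0 of the 8 had an unadjusted p under 0.05 in limma. In pooled tissue, fewer cells of a type and less RNA per cell cannot be told apart.

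Arg1 competes with the synthases for arginine, and the authors' deposited table places it on chromosome 10. It stood at 10.60, 10.43, 10.02 and 10.84 in Intact replicates 1 to 4. The SVX/VAS arrays held 11.19, 11.23, 10.86 and 10.82. All Intact arrays lay below the SVX/VAS mean, yet the groups overlapped, because Intact replicate 4 was slightly above SVX/VAS replicate 4. The means of 10.47 ± 0.35 and 11.02 ± 0.21 differed by -0.55 (SE 0.18, 95% interval -0.96 to -0.14), with an unadjusted p of 0.014 and an adjusted p of 0.27 in limma. Without Intact replicate 4 the difference was -0.68 with an adjusted p of 0.18, and Arg1 then met the study's criteria as lower, as it also did without Intact replicate 1 (-0.60), SVX/VAS replicate 3 (-0.61) or SVX/VAS replicate 4 (-0.62). Without Intact replicate 3 it was -0.40.

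Beside Arg1, the 8 stromal markers were all lower after Intact mating (median log2 difference -0.24), none with an unadjusted p under 0.05 in limma, and their mean level ranged from 7.75 to 8.58 in Intact and 8.12 to 8.75 in SVX/VAS. Of the 8 epithelial markers, 5 had positive and 3 negative differences. Krt18 alone had an unadjusted p under 0.05 in limma (log2 difference -0.41, and -0.22 at a second cluster). Epithelial markers went from 10.33 to 10.67 in Intact and from 10.39 to 10.61 in SVX/VAS, and Intact replicate 3, lowest in Arg1, was also lowest in that list. In the stromal list the same replicate was the highest Intact array (8.58), and Intact replicate 1 was the lowest (7.75). The part of either list in the Arg1 difference was not tested.

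Arg2 had log2 values of 6.06 to 6.56 in Intact and 6.12 to 6.69 in SVX/VAS, overlapping groups whose means differed by -0.17 (95% interval -0.54 to 0.19, limma adjusted p = 0.73). The difference of each array between its Nos2 and Arg1 values was -4.13 to -3.46 in Intact and -5.78 to -5.05 in SVX/VAS. These ranges did not overlap, and the 2 genes thus changed unequally by 1.61 log2 units, or 1.65 without Intact replicate 4. The pair was chosen after its values were seen, as the members with the largest differences in each direction, so no test is given.

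Ass1 ranged from 5.07 to 5.94 in Intact and from 5.42 to 5.96 in SVX/VAS. The lowest value of all 8 arrays belonged to Intact replicate 3, and the difference between groups was -0.18 (95% interval -0.62 to 0.26, limma adjusted p = 0.77). Without Intact replicate 3 it was -0.0080. Asl, the next enzyme of the same route, held 6.46 to 6.85 in Intact and 6.59 to 6.86 in SVX/VAS, a difference of -0.11 (95% interval -0.36 to 0.15). The transporter gene Slc7a2, known in mouse macrophages for supplying arginine to Nos2, was at 4.46 to 4.81 in Intact and 4.56 to 5.04 in SVX/VAS, with a difference of -0.16 (95% interval -0.44 to 0.12). All 3 genes thus had overlapping groups and negative differences, with limma adjusted p-values of 0.66 to 0.77, and the interval of Ass1 alone among them reached a 1.5-fold decrease.

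**Figure D2:**
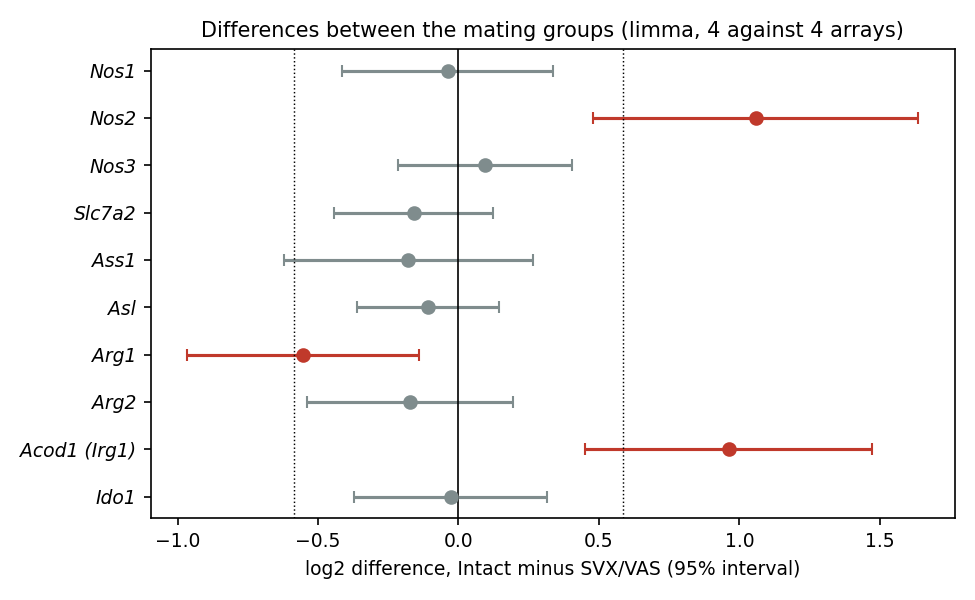
Log2 differences, Intact minus SVX/VAS, of the 10 genes with 95% intervals from limma (4 against 4 arrays). Red marks an unadjusted p under 0.05, dotted lines mark a 1.5-fold change in either direction, and Nos2, Acod1 (Irg1) and Arg1 are the genes whose intervals leave out 0.

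Acod1, which the authors' deposited table lists as Irg1 and places on chromosome 14 (53.5 cM), had log2 values of 5.46, 6.29, 5.46 and 6.29 in Intact replicates 1 to 4. The SVX/VAS arrays held 5.11, 4.81, 4.67 and 5.06. Intact replicates 2 and 4 were high, replicates 1 and 3 lay between them and the SVX/VAS arrays, and the groups were separated by 0.35. Means of 5.87 ± 0.48 and 4.91 ± 0.21 (SD, n = 4 each) differed by 0.96 (SE 0.23, 95% interval 0.45 to 1.47), with an unadjusted p of 0.0021, the smallest among the 10 genes, and an adjusted p of 0.15 in limma. Without Intact replicate 4 the difference was 0.82 with an adjusted p of 0.20. Within the Intact group, Acod1 and Nos2 were both highest in replicates 2 and 4. Replicate 1 stood near these 2 arrays in Nos2 but level with replicate 3 in Acod1.

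Among the genes described, a start sequence was available for Acod1, Nos1 and Ass1 alone. The start of Acod1 is shown because this gene had the smallest p of the set, and that of Nos1 is shown as a gene of the set with overlapping groups. Ass1, also with overlapping groups, held no match to the motifs searched and is not shown. Each sequence, from RefSeq on GRCm38.p6, runs from 250 bases before to 50 bases after the start site on the plus strand, at chr14:103046762-103047061 for Acod1 and chr5:117866589-117866888 for Nos1. Capitals mark matches to the motifs searched.
Acod1: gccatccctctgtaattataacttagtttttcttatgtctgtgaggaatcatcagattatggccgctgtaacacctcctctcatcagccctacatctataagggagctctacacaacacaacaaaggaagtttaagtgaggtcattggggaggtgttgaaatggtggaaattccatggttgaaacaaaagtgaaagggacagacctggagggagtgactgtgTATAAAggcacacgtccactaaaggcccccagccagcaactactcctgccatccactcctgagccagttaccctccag
Nos1: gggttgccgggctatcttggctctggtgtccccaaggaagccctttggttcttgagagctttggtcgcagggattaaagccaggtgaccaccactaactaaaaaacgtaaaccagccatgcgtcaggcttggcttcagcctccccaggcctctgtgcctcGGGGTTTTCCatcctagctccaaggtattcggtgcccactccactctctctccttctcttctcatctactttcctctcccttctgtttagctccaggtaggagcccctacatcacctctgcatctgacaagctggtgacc

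In Acod1 the capitals are a TATA box (TATAAA, searched on the given strand), at positions -28 to -23 from the start site, a motif that 8.32% of 32851 promoters of this length held. In Nos1 they are the NF-kB consensus GGGRNWYYCC, at positions -90 to -81, which 4.51% of promoters held on either strand. Acod1 held no exact match to these letters, and near matches were not searched in either sequence. The GAS motif TTCNNNGAA and the AP-1 motif TGANTCA, searched on both strands, had no match in either window, beside 8.30% and 7.81% of all promoters. A match is a run of letters and not a measured binding site.

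Ido1, placed on chromosome 8 by the authors' deposited table, ranged from 5.46 to 5.88 in the Intact arrays and from 5.37 to 5.97 in the SVX/VAS arrays. The highest arrays of the groups, both replicate 3, were close in value and the groups overlapped throughout. The difference of -0.03 had a 95% interval of -0.37 to 0.32, narrower than a 1.5-fold change in either direction (limma adjusted p = 0.96).

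Beside Nos2 and Acod1 stands a list of 8 genes known from classically activated macrophages and other stimulated cells. Of the 8, 5 met the study's criteria as higher, beside 0.9% of all clusters. These were Il1b (log2 difference 1.86, adjusted p = 0.042 in limma), Tnf (1.26), Ptgs2 (1.20), Cxcl10 (0.97) and Il6 (0.68). Il12b (-0.0023), Cd86 (0.02) and Cxcl9 (0.27) did not meet them. Only 4 of the 8 lay above the median cluster, and Il6 was low (3.30 in Intact and 2.63 in SVX/VAS), where values may be background. Several genes of the list were known as higher in these data when it was drawn up, so its direction is not independent evidence. The mean log2 level over this list was 5.94, 6.44, 5.90 and 6.27 in Intact replicates 1 to 4 and 5.32 to 5.38 in SVX/VAS. As for Acod1, replicates 2 and 4 were the highest. Of 9 genes of alternative activation, the state in which mouse macrophages express Arg1, 0 met the criteria. Beside this, 0.9% of all clusters met them as higher and 1.57% as lower. Only 2 of the 9 lay above the median cluster, so the values of the others may be background. Ccl22 (higher by 0.34 on the log2 scale) was the single one of the 9 with an unadjusted p under 0.05 in limma. The mean level of that list was 4.75 to 5.13 in Intact and 4.83 to 5.003 in SVX/VAS.

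Markers of cells known to express Nos2, Acod1 and Arg1 overlapped between the groups as lists. The 10 macrophage and monocyte markers had a mean level of 6.74 to 7.27 in Intact and 6.81 to 7.19 in SVX/VAS, and 0 of the 10 had an unadjusted p under 0.05 in limma. Of 12 neutrophil markers, 4 lay above the median cluster. The highest of these, Ltf (12.95 in Intact and 12.82 in SVX/VAS), also stands in the list of uterine epithelium. S100a8 (log2 difference 0.70) met the study's criteria as higher, beside 0.9% of all clusters. Its values were low (3.40 in Intact and 2.70 in SVX/VAS) and may be background. By unadjusted p alone in limma, Cxcr2 (0.54) was higher and Ly6g (-0.37) lower, and 9 were neither, beside 11.9% of all clusters under 0.05. The neutrophil list had a mean level of 5.52 to 5.83 in Intact and 5.45 to 5.55 in SVX/VAS. These groups overlapped only through Intact replicate 3, the Intact array that was also lowest in Nos2. The part of neutrophils or macrophages in the Nos2 and Acod1 values was not tested.

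**Figure D3:**
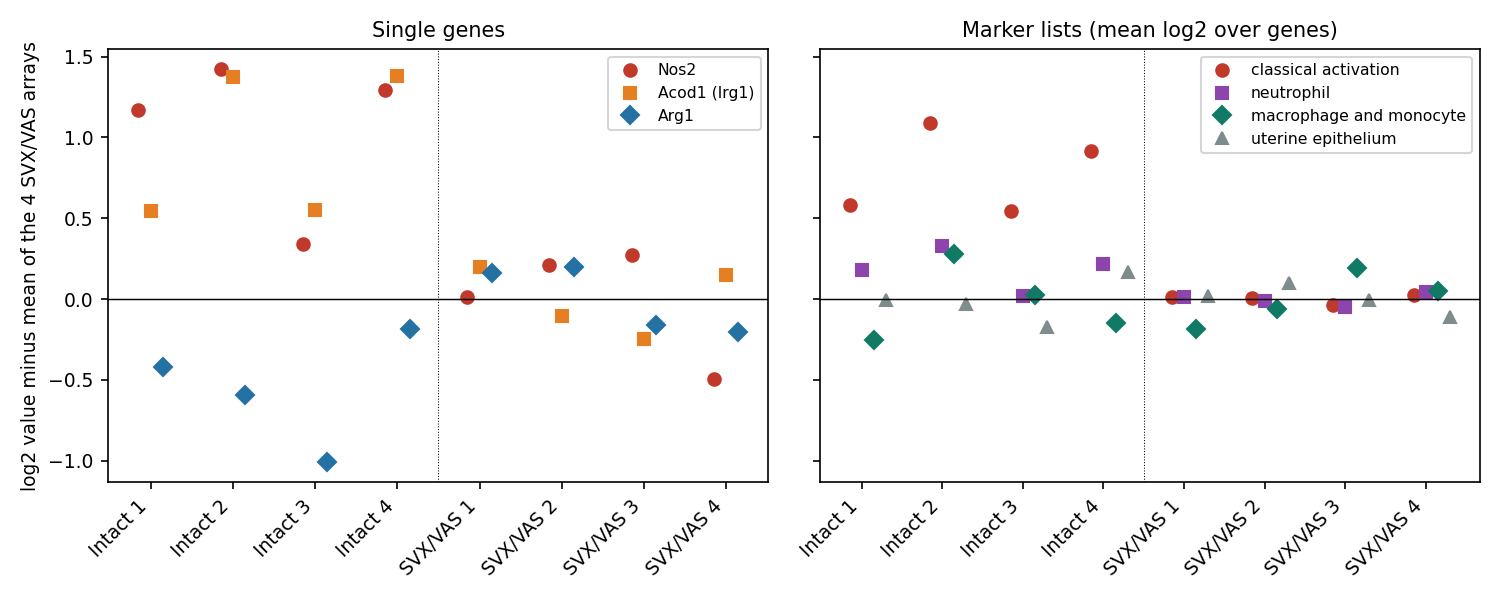
Log2 values on each array minus the mean of the 4 SVX/VAS arrays, for Nos2, Acod1 (Irg1) and Arg1 on the left and for the mean log2 level of 4 marker lists on the right. The classical activation list stands above 0 on all 4 Intact arrays, with replicates 2 and 4 highest, as for Acod1.

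In 9 lists of neighbouring pathway genes, all 107 genes were measured, each by its cluster with the lowest ID, and 0 passed the adjusted threshold in limma. At an unadjusted p under 0.05, 14 were higher and 8 lower after Intact mating and 85 were neither, beside 12.3% of all symbols and 17.2% of those above the median cluster, where 82 of the 107 lay. The study's criteria were met by 3 as higher, Slc7a5, Azin1 and Srm, and by 0 as lower, beside 0.783% and 0.617% of all symbols. Of 11 further clusters of these genes, 1 met the criteria, a second cluster of Oaz2 that was lower, and 0 passed the adjusted threshold in limma. The median log2 difference of the 107 genes was 0.01. In a fit on clusters above the median mean, 5 passed the adjusted threshold (Slc7a5, Azin1, Srm and Slc25a1 higher and Oat lower, limma adjusted p of 0.027 to 0.048), beside 1.73% of the clusters tested there.

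Polyamine synthesis starts from the ornithine that arginases make. Of the 13 polyamine genes measured, 4 were higher and 0 lower by unadjusted p and 9 were neither, with a median log2 difference of -0.04. Azin1, the antizyme inhibitor that protects ornithine decarboxylase, was 1.58-fold higher (log2 0.66, SE 0.13, limma adjusted p = 0.12). Srm, spermidine synthase, was 1.51-fold higher (adjusted p = 0.13) and Sms, spermine synthase, 1.47-fold higher (adjusted p = 0.22). The spermine oxidase gene Smox was higher by just under the 1.5-fold of the criteria, and Odc1, ornithine decarboxylase itself, had a log2 difference of -0.01 (both were chosen with their values in view). Azin1, Srm and Sms had groups that did not overlap, a state found with Intact higher for 3.37% of all clusters. The clusters of Oaz2, an antizyme that inhibits ornithine decarboxylase, disagreed (the gene was chosen after its values were seen). The lowest-ID cluster had a log2 difference of -0.23 (limma adjusted p = 0.71). The second held 6.10 to 6.42 in Intact and 6.86 to 7.01 in SVX/VAS. It was 1.60-fold lower after Intact mating (log2 -0.67, SE 0.10, limma adjusted p = 0.057).

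The other fate of ornithine runs through Oat, ornithine aminotransferase, which was 1.41-fold lower (log2 -0.49, SE 0.09, limma adjusted p = 0.089). Oat stood at 9.09 in Intact and 9.58 in SVX/VAS on average. Among the 11 genes of the urea cycle, proline and creatine branches, 1 was higher and 2 were lower by unadjusted p, and 8 were neither. The higher one was Aldh18a1, which starts proline synthesis from glutamate (1.17-fold). The groups of Slc7a1, the widely expressed arginine carrier, did not overlap, as for 3.37% of all clusters with Intact higher. Of 10 cationic amino acid and ornithine transporters, Slc7a1 was 1.41-fold higher (log2 0.49, SE 0.12, limma adjusted p = 0.17) and 9 were neither. Slc7a6 (log2 difference 0.20) and Slc3a1 (-0.22) came next by p.

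Tetrahydrobiopterin is the cofactor of the synthases. Gch1, which starts its synthesis, was 1.23-fold higher, while Pts, the next enzyme, was 1.21-fold lower and Pcbd1, a recycling enzyme, 1.32-fold lower by unadjusted p, and 5 of 8 were neither (limma adjusted p of 0.33, 0.25 and 0.27). Among 11 regulators of the synthases, Prmt1, which makes the methylarginines whose free forms inhibit them, was 1.20-fold higher by unadjusted p and 10 were neither. The dynein light chain Dynll1, a binding partner of Nos1, had a log2 difference of -0.24 and Ddah1, which breaks down methylarginines, one of 0.19. All 10 genes of nitric oxide reception had an unadjusted p over 0.05. The nearest were the cGMP-dependent kinases Prkg2 (0.19) and Prkg1 (-0.19) and Adh5, which reduces S-nitrosoglutathione (-0.19).

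Of 19 citrate cycle genes, 2 were higher and 3 lower by unadjusted p and 14 were neither. Slc25a1, the mitochondrial citrate carrier, was 1.39-fold higher (log2 0.47, SE 0.10, limma adjusted p = 0.12). Sdha, the catalytic subunit of the succinate dehydrogenase that itaconate inhibits, was 1.19-fold lower and Suclg2, a subunit of succinyl-CoA synthetase, 1.25-fold lower, with -0.21 on the log2 scale at a second Suclg2 cluster. Idh3a (1.26-fold higher) and Sdhd (1.22-fold lower) were named after their values were seen. In the list of 14 tryptophan and kynurenine genes, Slc7a5, a carrier of tryptophan and other large neutral amino acids, was 1.65-fold higher (log2 0.72, SE 0.14, limma adjusted p = 0.10). Ido2, the paralogue of Ido1, was 1.32-fold higher and the aminotransferase gene Kyat1, listed as Ccbl1, 1.33-fold lower, and 11 were neither. Of 11 transcription factors known to act on the genes described, 2 were higher by unadjusted p, among them Nfkbiz (1.26-fold), and 9 were neither, with a log2 difference of 0.23 for Cebpb.

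**Figure D4:**
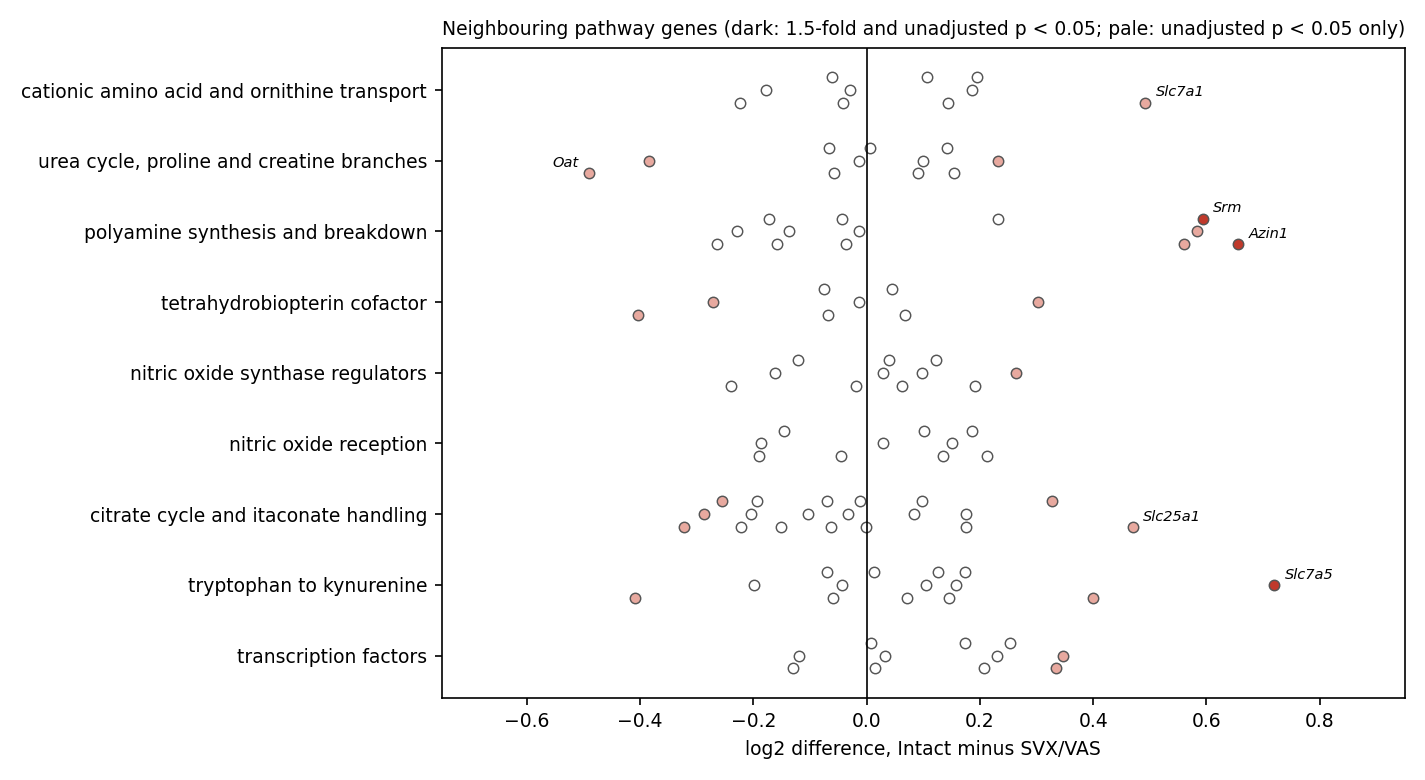
Log2 differences, Intact minus SVX/VAS, of 107 genes in 9 pathway lists, with a point for the lowest-ID cluster of each gene. Dark points (Slc7a5, Azin1 and Srm) met the study's criteria, pale points had an unadjusted p under 0.05 alone, and labels name these 3 along with Slc7a1, Oat and Slc25a1.

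Likeness of pattern was measured as Pearson's r of log2 values over the 8 arrays against 24646 other symbols, as a description. Since such an r holds the difference between groups as well as that within them, the most alike genes largely share that difference. Nos2 was most like Cirh1a (0.994), Tlr2, a receptor of bacterial lipoproteins (0.991), Nop56, Dnajb14 and G3bp1 (0.980 for the last). Acod1 was most like Cdk18 (0.983), Nat10, Alg3, Fbrsl1 and Rapgef5 (0.973 for the last). For Arg1 the closest were Dscr3 (0.993), Usp32, Sorl1, Scarna3b and Ints3 (0.977 for the last). Nos2 and Acod1 had an r of 0.797 with each other, and Acod1 ranked 774 among the symbols by likeness to Nos2.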

How the data were processed

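The authors deposited log2 values of each array, made in Partek Genomics Suite 6.6 with RMA background correction, GC correction and mean probe summarization, per the series' design text and the submitters' processing notes. Neither normalization between arrays nor a genome build is given in the sources used here. Also, the ratio (Intact over SVX/VAS) and the unadjusted p-value the authors deposited are named in the file headers. The residual sums of squares, a score column the authors deposited, entered no test. The log2 of the deposited ratio equalled the difference of group means to within 6.0e-05, which fixes scale and direction.

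Intact minus SVX/VAS was fitted over all 41345 clusters with limma 3.58.1 in R 4.3.3 (lmFit and eBayes, two-sided), without filter or covariates, and adjusted by Benjamini-Hochberg. The fit was tested on simulated data. Replicates were separate pools of females, and 4 arrays a group limit the precision. Arrays were treated as unpaired. Deviations of same-numbered arrays correlated at -0.03 to 0.07 and those of differently numbered arrays at -0.10 to 0.11. These correlations do not show whether same-numbered arrays shared a batch. Where a symbol had several clusters, that with the lowest ID was taken. From each pathway list the 3 genes with the smallest p were named, with any that passed the adjusted threshold (some are not reported here), and the 5 most alike genes for each of Nos2, Acod1 and Arg1. Members, lists and tests were chosen with earlier results of these data known. Older symbols were matched through RefSeq gene names.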

Additional observations from a re-analysis of the deposited data

How the results depend on the processing

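The 10 genes were refitted under 14 settings: the methods' t-test, the authors' deposited table, the replicate block, clusters above the median mean, quantile normalization, clusters with 1 symbol, and each of 8 arrays left out. No gene passed the adjusted threshold in any of them, and Nos2, Acod1, Arg1, Arg2, Ass1, Asl and Slc7a2 kept their direction in all that measured them (13 for Slc7a2, which lies below the median mean). Log2 differences ranged from 0.89 to 1.30 for Nos2, 0.82 to 1.1 for Acod1 and -0.68 to -0.40 for Arg1, with adjusted p-values of 0.062 to 0.32, 0.064 to 0.31 and 0.14 to 0.46. The ranges were -0.28 to -0.089 for Arg2, -0.30 to -0.0080 for Ass1 (the latter without Intact replicate 3), -0.17 to -0.047 for Asl and -0.24 to -0.085 for Slc7a2. Directions near 0 turned when arrays were left out, with ranges of -0.14 to 0.083 for Nos1, -0.018 to 0.16 for Nos3 and -0.12 to 0.086 for Ido1. The count past the study's criteria was 2 to 3, the addition being Arg1. By the methods' t-test the unadjusted p was 0.012 for Nos2, 0.010 for Acod1 and 0.035 for Arg1. The limma adjusted p of 0.064 for Acod1 came from the fit on clusters above the median mean, which Acod1 entered through its Intact arrays alone.

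Of the 107 pathway genes, 82 entered the fit on clusters above the median mean, where fewer clusters were tested and 1.73% were called. Among these, 5 passed (Slc7a5, Azin1, Srm and Slc25a1 higher, Oat lower). With clusters of 1 symbol 3 passed (Slc7a5, Azin1 and Oat), beside 234 of all 27037 clusters tested there. This setting was added after seeing the data for these lists. The second Oaz2 cluster, lower, had an adjusted p of 0.016 in both. With the replicate block, 0 of the 10 genes and 0 pathway genes passed, and adjusted p-values were 0.31 for Nos2, 0.25 for Acod1 and 0.35 for Arg1. Over all clusters 34 were called, beside 10 by the t-test, 0 with the replicate block, 358 above the median mean, 54 after quantile normalization, 234 with 1 symbol and 2 to 50 with an array left out (50 without Intact replicate 3).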

Other observations

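Lists for other cells that the scraped tissue or the ejaculate could hold showed small differences. Above the median cluster lay 1 of 10 sperm and male gland genes, 1 of 6 mast cell, 0 of 4 red cell and 5 of 6 smooth muscle genes. Values of the genes below it, among them Prm1 and Tpsb2, may be background. Sperm and male gland transcripts had a mean log2 level of 4.49 to 4.63 in Intact and 4.48 to 4.55 in SVX/VAS, and Prm1, a sperm protamine, was the single gene of 10 with an unadjusted p under 0.05 in limma (log2 difference 0.39, adjusted p = 0.22). All 6 mast cell markers had positive differences (median 0.16), of which Tpsb2, a tryptase, had an unadjusted p under 0.05 (0.46, adjusted p = 0.23 in limma), and their mean level was 3.82 to 4.04 in Intact and 3.58 to 3.82 in SVX/VAS. Smooth muscle markers ranged from 6.83 to 7.94 in Intact and 7.04 to 7.67 in SVX/VAS, with Intact replicate 1 lowest. Of the 5 red cell markers 4 were measured, at 4.33 to 4.55 and 4.09 to 4.47.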
